A study of Mus musculus with 11 samples.

Results

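The alpha and theta glutathione S-transferase (GST) genes *Gsta1*, *Gsta2*, *Gsta3*, *Gsta4*, *Gstt1*, *Gstt2* and *Gstt3* were taken by name from the deposited count table, which held all 7 among 24849 genes, 4 of the alpha and 3 of the theta class, each with a single table entry. The RNA came from the AML12 cell line, with 4 libraries of KO, 3 of WT and 4 of KI cells, of which the WT library called 5-6 is a single library. AML12 is a line of mouse hepatocytes that came from a mouse carrying a human TGF alpha transgene, and all groups share this background and a medium with dexamethasone, insulin, transferrin and selenium. No treatment is given in the labels. The KO cells carry the genotype TXNDC5 Knockdown in the labels and are described by the study as a stable knockout obtained with CRISPR/Cas9 and puromycin selection. The KI cells carry the genotype TXNDC5 Knockin, with TXNDC5 overexpressed from the ROSA26 safe harbour, and the WT cells are the wild-type line. How many clones stand behind the KO and KI lines is not given in the sources used here, and nothing says that the libraries of a group came from separate cultures, so the p-values below measure the spread between these libraries, which may be technical. TXNDC5 is a protein disulfide isomerase of the endoplasmic reticulum, and the comparisons ask how the abundance of the GST messages differed between the KO, WT and KI cells. Each edited line also differs from the WT line by how it was made, which cannot be told apart from its TXNDC5 level.

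GSTs are cytosolic enzymes that join the thiol of glutathione to electrophilic compounds, so that drugs, carcinogens and the aldehydes of lipid peroxidation can be exported and excreted. Alpha class enzymes are among the most abundant soluble proteins of hepatocytes, and several of their genes are induced by electrophiles through NRF2, a transcription factor that is held back by KEAP1 and binds antioxidant response elements (ARE), and by aromatic compounds through the aryl hydrocarbon receptor AHR and its partner ARNT at xenobiotic response elements (XRE). Theta class enzymes form an older branch that acts on small halogenated compounds and sulfate esters.

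How well short reads can tell these messages apart depends on how alike their sequences are, and the coding starts show a part of this. The first 60 coding bases of the alpha genes are given 5′ to 3′ from a single GENCODE transcript per gene, on the GRCm38 build, with capitals at every base that differs from *Gsta1*. *Gm3776* and *Gm10639* are unnamed alpha genes of the same cluster on chromosome 9.
*Gsta1*: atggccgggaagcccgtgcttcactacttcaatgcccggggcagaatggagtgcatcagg
*Gm3776*: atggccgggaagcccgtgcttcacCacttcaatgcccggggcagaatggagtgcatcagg
*Gsta2*: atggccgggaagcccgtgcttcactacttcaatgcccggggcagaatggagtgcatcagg
*Gm10639*: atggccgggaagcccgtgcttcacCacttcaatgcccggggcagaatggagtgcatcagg
*Gsta3*: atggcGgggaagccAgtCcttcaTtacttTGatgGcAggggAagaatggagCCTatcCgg
*Gsta4*: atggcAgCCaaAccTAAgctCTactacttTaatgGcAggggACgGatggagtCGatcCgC

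In this stretch *Gsta2* differed from *Gsta1* at 0 bases, *Gm3776* and *Gm10639* each at 1, *Gsta3* at 13 and *Gsta4* at 19. Over the whole coding sequence *Gsta1* was identical to *Gm3776* in 99.7%, to *Gsta2* in 97.6%, to *Gm10639* in 97.0%, to *Gsta3* in 74.1% and to *Gsta4* in 66.8% of the aligned positions. Of all stretches of 100 bases in the *Gsta1* transcript, 81.8% occurred also in another of these genes, and for *Gsta2* the share was 35.0%. For *Gsta3*, *Gsta4*, *Gstt1*, *Gstt2* and *Gstt3* it was 0.0%. How the authors' counting assigned reads that fit several genes is not given in the sources used here, so the split of reads between *Gsta1*, *Gsta2*, *Gm3776* and *Gm10639* is uncertain, whereas those of the other 5 genes had no such copy among the genes compared. The theta genes lie side by side on chromosome 10 on the minus strand, and their coding starts, with capitals at every base that differs from *Gstt1*, are shown to give the distance between them.
*Gstt1*: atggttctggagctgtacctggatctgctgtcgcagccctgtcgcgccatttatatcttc
*Gstt2*: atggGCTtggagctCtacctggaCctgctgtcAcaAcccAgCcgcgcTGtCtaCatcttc
*Gstt3*: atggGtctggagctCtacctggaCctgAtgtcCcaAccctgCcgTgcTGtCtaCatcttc

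*Gstt2* differed from *Gstt1* at 13 and *Gstt3* at 12 of these bases, and over the coding sequence *Gstt1* was identical to *Gstt3* in 75.7% and to *Gstt2* in 60.3% of the aligned positions.

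Promoter windows of RefSeq on GRCm38.p6, from 250 bases before to 50 bases after the start site, were at hand for *Gsta1*, *Gsta2*, *Gsta3*, *Gstt1* and *Gstt3*. They were searched on both strands for the ARE core TGACNNNGC, the XRE core GCGTG and the TATA box TATAAA. The windows of the 3 alpha genes are printed because they held the matches, in capitals, at chr1:21240335-21240634 on the plus strand for *Gsta3*, chr9:78230419-78230718 on the plus strand for *Gsta1* and chr9:78347096-78347395 on the minus strand for *Gsta2*.
*Gsta3*: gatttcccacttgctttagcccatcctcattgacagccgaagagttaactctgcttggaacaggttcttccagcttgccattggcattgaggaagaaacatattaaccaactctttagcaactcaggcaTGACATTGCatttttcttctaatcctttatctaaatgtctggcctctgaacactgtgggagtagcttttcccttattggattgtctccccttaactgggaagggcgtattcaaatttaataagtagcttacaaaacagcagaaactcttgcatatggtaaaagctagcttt
*Gsta1*: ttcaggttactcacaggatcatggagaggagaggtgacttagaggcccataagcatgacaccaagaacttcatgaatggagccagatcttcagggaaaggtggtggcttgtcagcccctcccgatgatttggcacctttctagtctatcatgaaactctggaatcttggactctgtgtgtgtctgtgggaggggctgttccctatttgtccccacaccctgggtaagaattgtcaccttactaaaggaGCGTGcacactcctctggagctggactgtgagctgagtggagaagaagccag
*Gsta2*: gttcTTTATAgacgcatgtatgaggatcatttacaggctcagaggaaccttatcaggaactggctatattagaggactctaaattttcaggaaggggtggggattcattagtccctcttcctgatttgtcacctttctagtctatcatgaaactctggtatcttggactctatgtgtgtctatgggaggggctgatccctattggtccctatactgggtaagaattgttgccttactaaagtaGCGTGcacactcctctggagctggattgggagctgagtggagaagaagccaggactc

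The ARE core occurred once, in the *Gsta3* window at position 130, and 12.4% of all 32851 promoter windows of this length held it. The XRE core occurred in the *Gsta1* window at position 249 and in the *Gsta2* window at position 244, next to the start site, and in 32.4% of all windows. A TATA box match on the opposite strand lay at position 5 of the *Gsta2* window, and 13.6% of all windows held 1. The *Gstt1* and *Gstt3* windows held none of the 3 motifs. The *Gsta1* and *Gsta2* windows were identical in 74.6% of their aligned positions. These matches describe the letters of the windows and say nothing of binding in these cells. Sequence further from the start sites was not searched, so a window without a match does not show that the gene lacks the motif.

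Total counts were between 30380360 and 38422243 in the KO, 29840366 and 30364098 in the WT and 32360709 and 35335070 in the KI libraries. *Txndc5* measured 10.2 ± 1.90 CPM (counts scaled with TMM factors to a common library size) in the KO (SD, n = 4), 143 ± 4.37 in the WT (SD, n = 3) and 169 ± 10.2 in the KI cells (SD, n = 4). This gave a log2 fold change of -3.82 in KO against WT (adjusted p = 4.09e-08) and 0.24 in KI against WT (adjusted p = 0.136, edgeR's quasi-likelihood test), so the rise that the KI label names did not pass the test, although the KI libraries were all above the WT libraries. A single newly assembled entry took 11.3% to 17.1% of the counts in the WT, 4.32% to 6.44% in the KO and 4.82% to 9.12% in the KI libraries, most in WT 5-6. Of 8 hepatocyte markers all were detected, 4 of them called higher and 4 lower in KO against WT and 1 higher and 4 lower in KI against WT, with a summed level of 6329.9 to 7455 CPM in the KO, 3861 to 6021 in the WT and 2952 to 3746 in the KI libraries. The higher KO sum was carried by *Alb*, at 4114 CPM in the KO, 513 in the WT and 246 in the KI cells. Without *Alb* the sum was lower in the KO, at 2518 to 2877 CPM, than in the WT libraries, at 3435 to 5648. In the KI libraries it was 2792 to 3444. The lower KO sum was carried by *Trf*, at 1346 CPM in the KO, 2974 in the WT and 1409 in the KI cells. Of the rest, *Apoa1*, *Apob* and *Hnf4a* were called higher and *Ttr*, *Fga* and *Fgb* lower in KO against WT. Of 13 markers of other liver cells, 6 in the KO, 4 in the WT and 5 in the KI libraries stayed at or under 3 counts, among them *Epcam*, *Col3a1* and *Adgre1* at 0 throughout, and the sum was 1089 to 1222, 871 to 1097 and 715 to 978 CPM, most of it *Krt19*. Without *Krt19* it was 47.3 to 56.6 CPM in the KO, 218 to 244 in the WT and 150.01 to 166 in the KI libraries, the same order as most of the GST genes below. Of 6 tested, 4 fell in KO against WT and 1, *Krt19*, rose (0.49, adjusted p = 0.0117). The falls were those of *Krt7* (-3.40, adjusted p = 2.32e-08, from 177 to 17.0 CPM), *Ptprc* (-3.93, adjusted p = 0.00380), *Cd68* (-2.03, adjusted p = 0.000158) and *Sox9* (-0.47, adjusted p = 0.0297), and in KI against WT *Krt7* (-0.59, adjusted p = 0.00288) and *Cd68* (-1.59, adjusted p = 0.00103) fell. The part of these differences in the results below was not tested. In bulk RNA, fewer cells that express a gene and less RNA per cell cannot be told apart.

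All 7 alpha and theta GST messages were lower in the KO than in the WT cells. In TMM-scaled CPM the libraries of the groups did not overlap. For *Gsta2* this rested on the scaling, since KO 6 had 44 counts of 30407378 and WT 8 had 41 of 29840366. The log2 fold changes ranged from -3.47 for *Gstt1* to -0.82 for *Gsta4*. Among all 13359 genes tested, 28.4% were called lower (adjusted p under 0.05) and 26.7% higher, and 27.1% lay wholly below the WT libraries. The median log2 fold change was -1.87 over the 7 genes and -0.03 over all genes tested. In the KI cells 6 of the 7 were also called lower than in the WT cells, with a median of -1.14 against -0.02 over all genes tested. Of these 13534 genes, 21% were called lower and 21.2% higher, and 21.3% lay wholly below. Among the 6, the call of *Gsta4* was lost in 6 of the 7 fits that left out a single library. Its separation also rested on the scaling, since KI 5 had 5383 counts of 34601641 and WT 7 had 3954 of 30364098. The KO and KI comparisons share the WT libraries, so they are given side by side. The direct comparison of KO with KI, which shares its libraries with the other comparisons, called 5 of the 7 lower and 1 higher, beside 27% of 13269 genes called lower and 27% called higher.

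**Figure D1:**
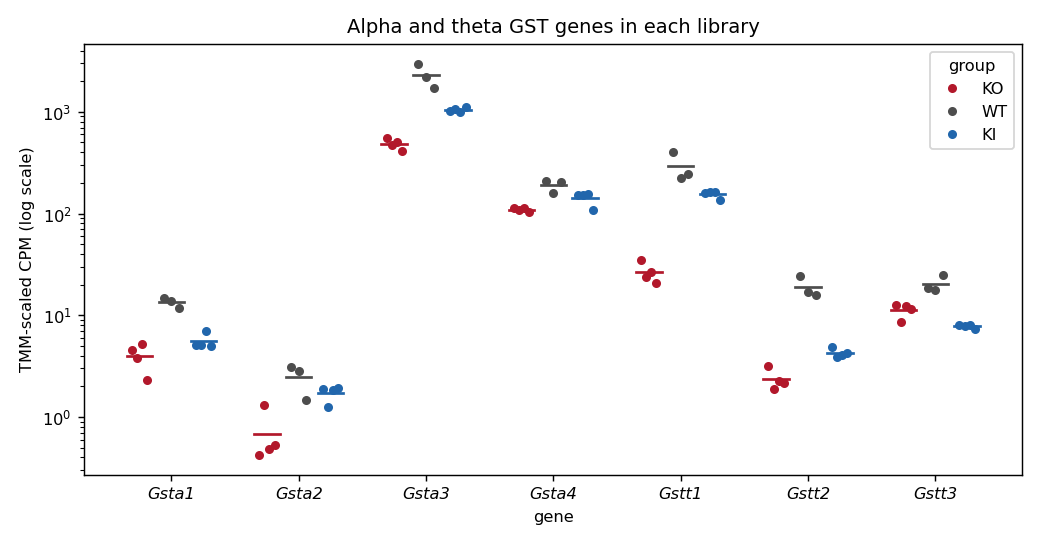
TMM-scaled CPM of the 7 genes (log axis) in each library, as points coloured by group, with the group mean as a line. The 4 KO libraries lie below the 3 WT libraries for every gene, from the highly expressed *Gsta3* to *Gsta2*, and for *Gstt3* the KI libraries lie lowest.

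*Gsta3* encodes the main alpha class enzyme of these cells by read number, known in mice for conjugating the epoxide of aflatoxin. It measured 555, 469.5, 509 and 410.5 CPM in KO libraries 5 to 8, 2981, 2221 and 1697 CPM in WT 5-6, 7 and 8, and 1014, 1070.0, 987 and 1114 CPM in KI libraries 5 to 8. The KI libraries stood between the others and no library of a group reached into another group. The means were 486 ± 61.4 CPM in the KO (SD, n = 4), 2299.8 ± 646 in the WT (SD, n = 3) and 1046 ± 57.0 in the KI cells (SD, n = 4). The message fell 4.79-fold in KO against WT (log2 fold change -2.26, SE 0.20, adjusted p = 6.36e-06) and 2.20-fold in KI against WT (-1.14, SE 0.19, adjusted p = 0.000457). It was also 2.15-fold lower in KO than in KI cells (-1.10, SE 0.10, adjusted p = 2.57e-07).

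*Gsta4* encodes the alpha class enzyme with high activity towards hydroxynonenal and other aldehydes of lipid peroxidation. Its level was 114, 108, 112 and 103 CPM in KO libraries 5 to 8, 209, 159 and 203 CPM in WT 5-6, 7 and 8, and 151, 153, 155 and 109 CPM in KI libraries 5 to 8. The KO libraries were all below the WT libraries, and KI 8 lay within the KO range, whereas the other KI libraries lay just below WT 7. It fell in KO against WT (log2 fold change -0.82, SE 0.12, adjusted p = 0.000221), by about as much as *Gstt3* (-0.88), and which of the pair fell less changed without KO 6 or WT 8. In KI against WT it was -0.42 (SE 0.16, adjusted p = 0.0470), a call that was lost under 10 of the 16 alternatives, 6 of them leaving out a single library (WT 5-6, WT 8 or any of the 4 KI libraries), with adjusted p-values up to 0.134 there and a log2 fold change of -0.10 with library totals in place of TMM. In KO against KI it was -0.37 (SE 0.11, adjusted p = 0.00847), with overlap.

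*Gsta1* encodes an alpha class enzyme that electrophiles and aromatic compounds induce in mouse liver. Its counts were 163, 127, 173 and 101 in KO libraries 5 to 8, 329, 343 and 331 in WT 5-6, 7 and 8, and 184, 183, 265 and 164 in KI libraries 5 to 8. The WT libraries were above all others, and the KO and KI libraries overlapped. It fell 3.44-fold in KO against WT (log2 fold change -1.78, SE 0.25, adjusted p = 0.000141) and 2.42-fold in KI against WT (-1.28, SE 0.19, adjusted p = 0.000179). The difference between KO and KI was -0.48 (SE 0.23, adjusted p = 0.0924) and did not pass the test, except without KO 7 (-0.64, adjusted p = 0.0442).

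*Gsta2*, its near copy, was the least abundant, with 15, 44, 16 and 23 counts in KO libraries 5 to 8, 70, 70 and 41 counts in WT 5-6, 7 and 8, and 68, 45, 71 and 64 counts in KI libraries 5 to 8. KO 6 stood apart from the other KO libraries, and WT 8 lay within the range of the KI libraries once scaled. It fell in KO against WT (log2 fold change -1.87, SE 0.49, adjusted p = 0.00762). In KI against WT it was -0.50 (SE 0.35, adjusted p = 0.269) and did not pass the test. In KO against KI it was -1.34 (SE 0.43, adjusted p = 0.0155), with KO 6 overlapping KI 6.

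The 2 unnamed near copies had few reads. *Gm3776* had 92, 130, 91 and 70 counts in KO libraries 5 to 8, 191, 174 and 109 in the WT and 105, 75, 75 and 32 in the KI libraries, and it fell in KO against WT (log2 fold change -1.28, adjusted p = 0.00708) and in KI against WT (-1.70, adjusted p = 0.00236), with 0.44 in KO against KI (adjusted p = 0.298). *Gm10639* had 0 to 7 counts in the KO, 3 to 31 in the WT and 4 to 21 in the KI libraries and passed the filter on low counts in KI against WT only (-1.22, adjusted p = 0.223). *Gstt4*, a further theta gene, had 0 counts in every library. With the reads of *Gsta1*, *Gsta2*, *Gm3776* and *Gm10639* summed, an alternative chosen after seeing the data that does not depend on their split, the log2 fold change was -1.67 in KO against WT (SE 0.24, adjusted p = 0.000176), -1.27 in KI against WT (SE 0.19, adjusted p = 0.000261) and -0.38 in KO against KI (SE 0.20, adjusted p = 0.118). The lower *Gsta2* level of the KO against the KI cells was thus not a call for the 4 genes together.

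*Gstt1* encodes the theta class enzyme known for conjugating small halogenated hydrocarbons. It measured 35.2, 23.7, 26.9 and 20.9 CPM in KO libraries 5 to 8, 406, 225 and 243 CPM in WT 5-6, 7 and 8, and 161, 162, 162 and 136 CPM in KI libraries 5 to 8. The 3 groups were apart, with the KO libraries far below the others and WT 5-6 well above the other WT libraries. The fall in KO against WT was the largest of the 7 (log2 fold change -3.47, SE 0.23, adjusted p = 1.11e-06), and leaving out each library in turn gave -3.63 to -3.13. In KI against WT the fall was 1.87-fold (-0.90, SE 0.19, adjusted p = 0.00217), and without WT 5-6 it was -0.59 (adjusted p = 0.00629). KO was 5.81-fold below KI (-2.54, SE 0.14, adjusted p = 9.69e-10).

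*Gstt2* encodes a theta class enzyme with activity towards sulfate esters. Its level was 3.14, 1.87, 2.25 and 2.14 CPM in KO libraries 5 to 8, 24.3, 16.7 and 15.7 CPM in WT 5-6, 7 and 8, and 4.92, 3.86, 4.05 and 4.29 CPM in KI libraries 5 to 8. Every KI library was above every KO library and far below the WT libraries, so here the KI cells stood closer to the KO than to the WT cells. It fell 8.14-fold in KO against WT (log2 fold change -3.02, SE 0.23, adjusted p = 2.17e-06) and 4.41-fold in KI against WT (-2.14, SE 0.19, adjusted p = 5.52e-06). KO against KI gave -0.86 (SE 0.22, adjusted p = 0.00383).

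*Gstt3*, the third theta gene of the cluster, followed another order. It measured 12.5, 8.64, 12.2 and 11.5 CPM in KO libraries 5 to 8, 18.3, 17.7 and 25.1 CPM in WT 5-6, 7 and 8, and 8.03, 7.77, 8.07 and 7.39 CPM in KI libraries 5 to 8. The KI libraries were lowest and the KO libraries lay between them and the WT libraries. It fell 1.84-fold in KO against WT (log2 fold change -0.88, SE 0.18, adjusted p = 0.00170) and 2.61-fold in KI against WT (-1.38, SE 0.17, adjusted p = 4.58e-05). Scaled by library totals instead of TMM, the KO value was -0.49 (adjusted p = 0.0785) and no longer a call. KO was 1.44-fold above KI (0.52, SE 0.14, adjusted p = 0.00575), the only one of the 7 that was higher in the KO than in the KI cells.

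Between KO and KI, *Gsta3*, *Gstt1* and *Gstt2* lay wholly lower and *Gstt3* wholly higher, whereas *Gsta1*, *Gsta2* and *Gsta4* overlapped. Of all genes tested in this comparison, 24.4% lay wholly lower and 24.2% wholly higher.

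**Figure D2:**
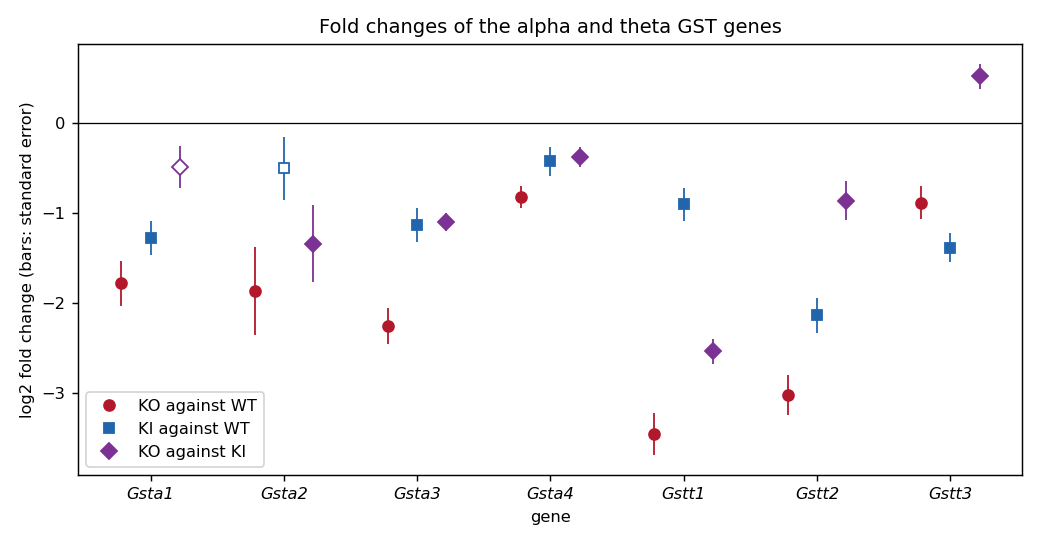
Log2 fold change of each gene with its standard error in KO against WT, KI against WT and KO against KI, with open symbols where the adjusted p was 0.05 or more. The KO values reach from -3.47 for *Gstt1* to -0.82 for *Gsta4*, and *Gstt3* is the gene with a value above 0 in KO against KI.

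Per length of the transcript, the order of the levels in the WT cells was *Gsta3* (1578 CPM per kb), *Gstt1* (281 ± 96.1), *Gsta4* (195 ± 27.7), *Gsta1* (15.3 ± 1.74), *Gstt2* (13.8 ± 3.42), *Gstt3* (10.9 ± 2.19) and *Gsta2* (2.83 ± 1.02), as means and SD over 3 libraries. *Gstt1* and *Gsta4* differed by less than the SD of *Gstt1*, and neither *Gsta1* and *Gstt2* nor *Gstt2* and *Gstt3* differed beyond their spread. In the KO cells the order was *Gsta3* (334 ± 42.1), *Gsta4* (112 ± 5.24), *Gstt1* (25.7 ± 5.98), *Gstt3* (5.97 ± 0.941), *Gsta1* (4.53 ± 1.42), *Gstt2* (1.71 ± 0.403) and *Gsta2* (0.785 ± 0.478) CPM per kb over 4 libraries, with *Gstt1* below *Gsta4* and *Gstt3* above *Gstt2*. *Gstt3* and *Gsta1* did not differ beyond their spread there. In the KI cells it was *Gsta3* (718 ± 39.1), *Gstt1* (149.8 ± 12.2), *Gsta4* (145 ± 22.6), *Gsta1* (6.31 ± 1.07), *Gstt3* (4.16 ± 0.167), *Gstt2* (3.12 ± 0.338) and *Gsta2* (2.00 ± 0.382), where *Gstt1* and *Gsta4* were indistinguishable.

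The makeup of each class was compared as shares of its reads, which do not depend on the scaling of the libraries. *Gsta3* made up 80.9% ± 1.16 of the alpha reads in the KO (SD, n = 4), 91.4% ± 2.37 in the WT (SD, n = 3) and 87.5% ± 2.13 in the KI libraries (SD, n = 4), and *Gsta4* 18.3% ± 1.24, 7.93% ± 2.33 and 11.9% ± 2.08. In the theta class *Gstt1* made up 66.0% ± 4.16 in the KO, 87.6% ± 2.57 in the WT and 92.8% ± 0.530 in the KI libraries, and *Gstt3* 28.2% ± 4.04, 6.59% ± 2.40 and 4.68% ± 0.220. *Gstt2* held 5.81% ± 0.427, 5.80% ± 0.562 and 2.57% ± 0.346. The shares of *Gsta3*, *Gsta4*, *Gstt1* and *Gstt3* did not overlap between KO and WT, and those of *Gstt1* and *Gstt2* did not overlap between KI and WT. Each of these had p = 0.0571 in the two-sided exact permutation test over libraries, the smallest that 4 against 3 libraries allow. Between KO and KI the shares of *Gsta3*, *Gsta4* and all 3 theta genes were apart, with p = 0.0286 in the same exact permutation test, the smallest for 4 against 4. Adjusted over the 21 shares compared, the lowest p was 0.0999, so none passed.

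**Figure D3:**
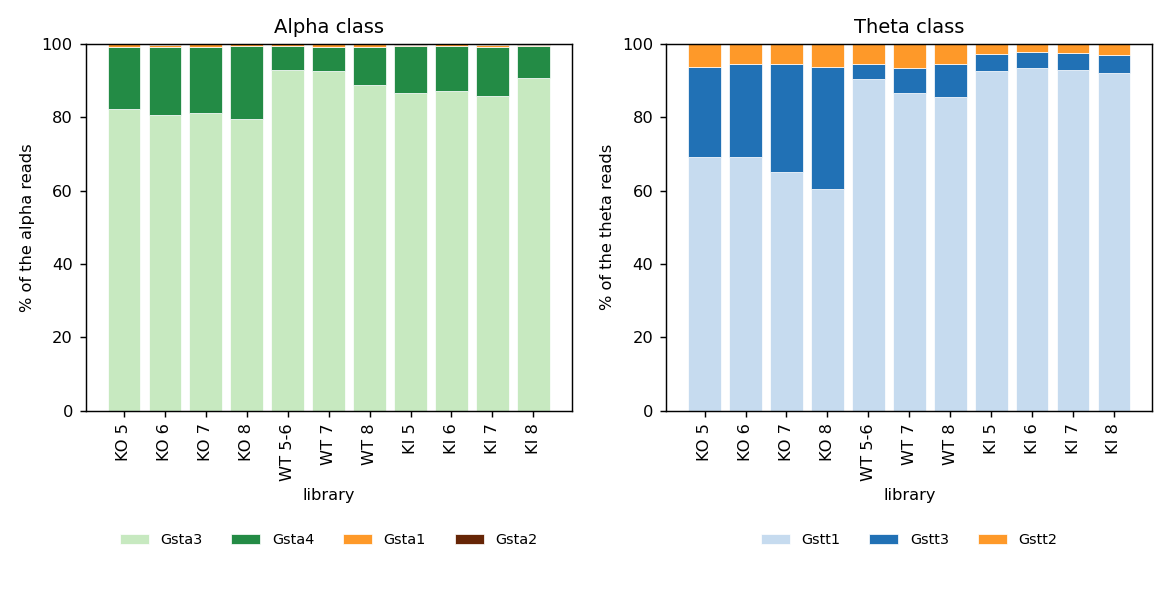
Percent of the alpha class reads (left) and of the theta class reads (right) taken by each gene, stacked to 100 for every library. The KO libraries have the largest shares of *Gsta4* and *Gstt3*, with *Gstt3* at 24.6% to 33.2% of the theta reads against 4.08% to 8.86% in the WT libraries.

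Across the 11 libraries, log2 levels of the 7 genes correlated with each other with Pearson's r between 0.09 (*Gsta2* and *Gstt3*) and 0.96 (*Gsta3* and *Gstt2*), a description over libraries that share the group differences and the scaling. After the group means were taken out, r was 0.83 for *Gstt1* with *Gstt2*, 0.77 for *Gsta3* with *Gstt1* and 0.72 for *Gsta3* with *Gstt2*. It was -0.91 for *Gsta2* with *Gstt3*, whereas the other pairs with *Gsta2* lay between -0.26 and 0.29. *Gsta2* had at most 71 counts in any library, and the split of its reads is uncertain. The KO library with the most *Gsta2* counts (44) had the lowest *Gstt3* level of the KO (8.64 CPM). The WT library with the fewest (41) had the highest of the WT (25.1 CPM). How far the value of -0.91 rests on these libraries was not tested. Over the same 11 libraries, the patterns most like that of each gene belonged to *Spata24* (r = 0.994) and *Itm2c* (r = 0.993) for *Gsta3*, *Sra1* (r = 0.984) and *Nt5dc2* (r = 0.966) for *Gsta4*, *Mturn* (r = 0.995) and *Csf3* (r = 0.992) for *Gstt1*, *Mgarp* and *Mrpl45* (both r = 0.984) for *Gstt2*, and *Rab2b* (r = 0.980) and *Pcx* (r = 0.977) for *Gstt3*. For *Gsta1* they belonged to a newly assembled gene (r = 0.973) and *Fank1* (r = 0.971), and for *Gsta2* to *Zfp157* (r = 0.945) and a newly assembled gene (r = 0.943).

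The GSTs of the other classes moved in both directions. The counts of this list and of the lists below stand beside the shares over all genes tested. Those were 28.4% called lower and 26.7% higher in KO against WT, and 21% and 21.2% in KI against WT. In KO against KI they were 27% each. Of 17 tested in KO against WT, 5 rose and 10 fell, with a median log2 fold change of -0.57, and in KI against WT 2 rose and 11 fell, with a median of -1.10. Scaled by library totals instead of TMM, the counts were 6 and 6 in KO against WT and 3 and 10 in KI against WT. *Gstk1*, the mitochondrial and peroxisomal kappa enzyme, had the lowest value in KO against WT (-5.12, SE 0.28, adjusted p = 3.01e-07), below that of any alpha or theta gene, with 23 to 33 counts in the KO and 466 to 732 in the WT libraries. The pi class gene *Gstp3* had the lowest value in KI against WT (-3.79, SE 0.25, adjusted p = 5.20e-07). The mu class gene *Gstm2* had the highest value in both (1.42, adjusted p = 4.50e-05 in KO, and 0.56, adjusted p = 0.0156 in KI). *Hpgds*, the sigma class enzyme that makes prostaglandin D, rose in KO (0.82, adjusted p = 0.0196) and fell in KI (-1.36, adjusted p = 0.00698), and KO against KI gave its largest value there, 2.20 (adjusted p = 3.03e-06). Between KO and KI, 11 of the 17 were higher and 3 lower in the KO cells, the latter led by *Gstk1* (-3.80, adjusted p = 1.92e-07).

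**Figure D4:**
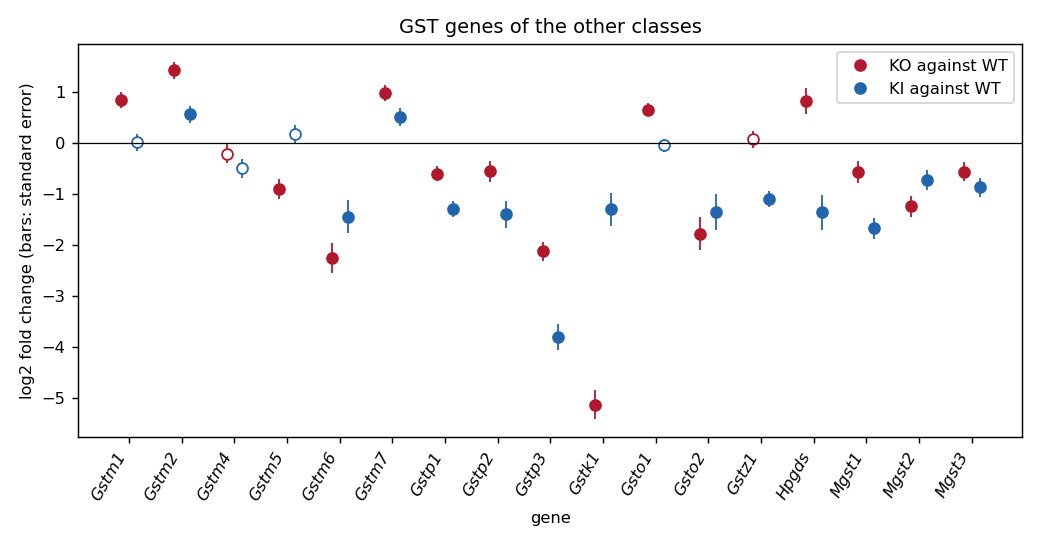
Log2 fold change with standard error of the 17 tested GST genes of the mu, pi, kappa, omega, zeta, sigma and microsomal classes in KO against WT and KI against WT, with open symbols where the adjusted p was 0.05 or more. Values reach from -5.12 for *Gstk1* to 1.42 for *Gstm2*, both in KO against WT.

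Of the 6 genes that supply glutathione, 0 fell and 2 rose in either comparison with WT, or 5 in each with library totals. *Gss*, the synthetase of the last step, rose in KO from 29.3 to 83.8 CPM (adjusted p = 3.05e-05), and *Gclm*, the modifier subunit of the first step, rose in KO (0.82, adjusted p = 0.000580) and in KI (0.59, adjusted p = 0.00433). *Gclc*, the catalytic subunit, had the lowest value in KO, -0.20 (adjusted p = 0.210), and *Slc7a11*, the cystine transporter, that in KI, -0.08 (adjusted p = 0.731). Both of these changed sign with library totals. Between KO and KI *Gss* had the highest value (1.15, adjusted p = 1e-07) and *Gclc* the lowest (-0.35, adjusted p = 0.0145). Of 13 tested genes of conjugate export and mercapturate formation, 1 rose and 5 fell in KO, and 2 rose and 3 fell in KI (4 and 2, and 3 and 2, with library totals). The aminoacylase *Acy1* rose in KO (1.24, adjusted p = 4.62e-05). The glutamyl transferase *Ggt1*, which begins the breakdown of conjugates outside the cell, had the lowest value in KO (-2.91, SE 0.75, adjusted p = 0.00676), with 0 to 23 counts in the KO and 39 to 80 in the WT libraries. In KI its relatives *Ggt7* (1.31, adjusted p = 0.00891) and *Ggt6* (-1.94, adjusted p = 2.30e-05) had the highest and lowest values. Between KO and KI 3 were higher and 4 lower, with *Ggt6* highest (0.69, adjusted p = 0.00842) and the peptidase *Anpep*, at no more than 2.24 CPM in any library, lowest (-3.49, adjusted p = 0.00119).

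Among 15 tested regulators of GST genes, 6 rose and 4 fell in KO, and 1 rose and 5 fell in KI (6 and 2, and 5 and 1, with library totals). The shares over all genes tested were 26.7% higher and 28.4% lower in KO, and 21.2% higher and 21% lower in KI. *Nfe2l2*, which encodes NRF2, measured 173 ± 7.40 CPM in the KO (SD, n = 4), 109 ± 13.2 in the WT (SD, n = 3) and 130 ± 5.55 in the KI cells (SD, n = 4), a rise in KO (0.64, SE 0.12, adjusted p = 0.000984) and 0.25 in KI (SE 0.13, adjusted p = 0.136, or 0.57 with adjusted p = 0.0169 with library totals). *Keap1* rose in both (0.69, adjusted p = 0.000452, and 0.58, adjusted p = 0.00350). The highest value in KO was that of the liver factor *Cebpa* (1.70, adjusted p = 7.44e-06) and the lowest that of *Ahr* (-1.37, SE 0.15, adjusted p = 2.78e-05). In KI the lowest was *Nr1i2*, the pregnane X receptor (-2.71, SE 0.26, adjusted p = 8.61e-06), which was -0.36 in KO (adjusted p = 0.124). Between KO and KI 8 were higher and 2 lower in the KO cells, from *Nr1i2* (2.38, adjusted p = 5.18e-07) to *Maff*, a partner of NRF2 (-1.06, adjusted p = 7.29e-07). Of the NRF2 targets outside the GST family, a list that also holds *Gclc*, *Gclm*, *Slc7a11* and *G6pdx*, 7 of 15 tested rose and 4 fell in KO, and 4 of 14 rose and 4 fell in KI (9 and 2, and 7 and 2, with library totals). The quinone reductase *Nqo1* had 23 to 42 counts in the KO libraries 0 in all WT libraries and 0 to 3 in the KI libraries, which made it at least 6.81-fold higher in KO than in WT cells against a floor of 3 counts per library. The heme oxygenase *Hmox1* fell in KO (-2.78, adjusted p = 3.14e-07) and in KI (-0.89, adjusted p = 0.000783), and KO against KI gave -1.86 (adjusted p = 1.13e-09), with 6 of the list higher and 4 lower there. In KI the highest was *Taldo1* of the pentose phosphate path (0.75, adjusted p = 0.00313). Among the genes of these lists of other GSTs, supply, export, regulators and targets, *Hpgds* alone was called in opposite directions in KO and KI against WT, as was *Alb* among the hepatocyte markers. The sign of the value also differed, without calls in both, for *Gstm5*, *Gsto1*, *Gstz1*, *Abcc1*, *Abcc2*, *Anpep*, *Acy3*, *Bach1*, *Maff*, *Rxra*, *Cebpa*, *Cebpb*, *Srxn1*, *Ephx1*, *Me1*, *Gclc* and *Slc7a11*.

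The 7 genes lie at 3 places in the genome. The 5 nearest tested genes on either side of each, in the RefSeq order, were called in both directions in KO against WT. Over all genes tested, 28.4% were called lower and 26.7% higher in KO, and 21% lower and 21.2% higher in KI. Around *Gsta4*, *Gsta1* and *Gsta2* on chromosome 9, 1 of 10 neighbours was called lower and 5 higher in KO against WT, among them *Cd109* (2.41, adjusted p = 2.86e-06), and *Gclc* lies among these neighbours. Around *Gstt3*, *Gstt1* and *Gstt2* on chromosome 10, 3 of 10 were called lower (*Ggt1*, *Mif* and *Mmp11*) and 4 higher in KO, and 0 lower and 3 higher in KI. *Smarcb1*, for instance, gave 0.80 in KO (adjusted p = 0.00392) and 0.75 in KI (adjusted p = 0.00766). Around *Gsta3* on chromosome 1, 3 of 10 were called lower and 1 higher in KO, and 4 lower and 2 higher in KI. The next tested gene, *Tmem14a*, measured 8.58 to 11.6 CPM in the KO, 29.3 to 50.4 in the WT and 15.2 to 22.8 in the KI libraries, which gave -2.05 in KO (adjusted p = 1.25e-05) and -1.26 in KI (adjusted p = 0.000421), beside -2.26 and -1.14 for *Gsta3*. *Sdhaf4*, 4 tested genes to the other side, gave -1.72 (adjusted p = 4.27e-05) and -1.13 (adjusted p = 0.000608), whereas the 3 genes between it and *Gsta3* had no call in KO and *Mcm3* rose in both (2.13, adjusted p = 1.26e-06, and 2.14, adjusted p = 1.89e-06). These neighbours were chosen by position, and *Tmem14a*, *Sdhaf4*, *Mcm3*, *Cd109* and *Smarcb1* were named after their values were seen.

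**Figure D5:**
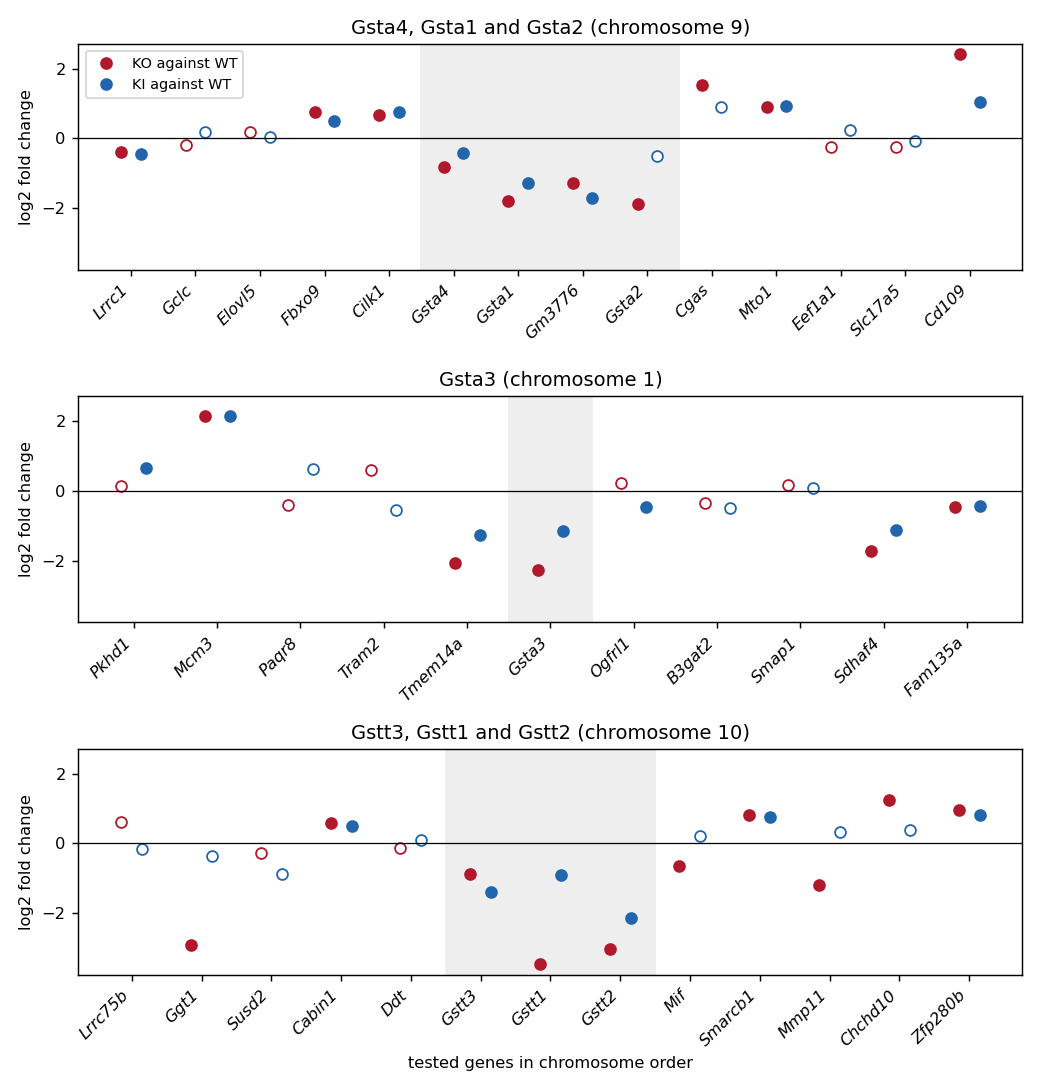
Log2 fold change in KO against WT and KI against WT of the alpha and theta GST genes (grey bands, with *Gm3776*) and of the 5 nearest tested genes on either side, in chromosome order without distances. Open symbols mark an adjusted p of 0.05 or more, and the values in the bands lie below 0 while those of the neighbours lie on both sides of it.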

How the data were processed

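Per the labels, polyadenylated RNA was sequenced. The authors deposited raw read counts per gene from their sequencing provider, without normalization. The submitters' processing notes name HISAT2, TopHat2, Bowtie2 and StringTie. Their versions, the genome build and the counting tool are not given in the sources used here, and the library protocol does not mark strand. Of 26472 table lines, 10 with broken annotation were left out. Counts were summed by gene name. The deposited FPKM columns and the authors' own fold changes and p-values were not used. Many FPKM values hold more than 1 decimal point.

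Low counts were removed with filterByExpr and libraries scaled by TMM before a quasi-likelihood test (edgeR 4.0.16, R 4.3.3) on the libraries of the 2 groups compared, with Benjamini-Hochberg adjustment over all genes tested and a call at 0.05. The standard error was derived from the fold change and the F value. Levels are CPM with TMM factors over all 11 libraries. For log2 levels in correlations the prior count was 2. With 3 counts as the floor of detection, intervals and floors cover counting error only. DESeq2 1.42.0 and limma 3.58.1 were alternatives. The test was tested on simulated data and found 93.4% of changed genes in KO against WT (13181 genes), 93.5% in KI against WT (13402) and 96.4% in KO against KI (13144). The simulation gave every gene the same dispersion, so these shares may not hold for more variable genes. Changes as small as those of *Gsta4* and *Gstt3* in KO against WT were not simulated. Figures were drawn with matplotlib 3.10.9.

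The genes, lists and tests were chosen with earlier results of these data known, and the study itself singles out both the alpha and theta families, and *Gstt1*, *Gstm6* and *Gstp3* by name, from these libraries, so their direction here is not independent evidence. The study also measured the named genes by RT-qPCR and reported *Gstt1* and *Gstm6* as decreased in the KO cells. Those measurements were not examined here. Genes of the lists were named for the highest and lowest fold change, for a direction that differed between KO and KI, or as *Nfe2l2* or *Keap1*, and for each GST gene the 2 with the highest correlation.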

Additional observations from a re-analysis of the deposited data

Results flagged for a closer look

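In 5 of 18 combinations of gene and group of 4 libraries looked at, a single library lay far from the other 3, by the gap to its nearest neighbour as a share of the whole range. Chance gives such a gap in about 1 in 20 groups, or 0.9 of these 18. That rate assumes a form of spread that was not checked for these genes, and *Gsta4* and *Gstt1* share the library KI 8. Setting 5 beside 0.9 is therefore no test of an excess. In the KI cells *Gsta1* was 6.92 CPM in KI 7 and 4.99 to 5.15 in the others (gap 0.918 of the range). *Gsta2* was 1.24 CPM in KI 6 and 1.86 to 1.95 in the others (0.872), and in the KO cells it was 1.30 CPM in KO 6 and 0.420 to 0.529 in the others (0.877). KI 8 stood low for *Gsta4*, at 109 CPM against 151 to 155 (0.903), and for *Gstt1*, at 136 CPM against 161 to 162 (0.936). Without KI 8 the call of *Gsta4* in KI against WT was lost (adjusted p = 0.104), and that of *Gstt1* was kept (adjusted p = 0.00778).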

How the results depend on the processing

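Of 349 values under the alternatives, 335 kept their direction and their side of the threshold, 12 kept the direction but lost the call, 2 gained a call and 0 reversed. These are values of single genes, except that the sum of the near copies stands in for both *Gsta1* and *Gsta2* under its own alternative. Of the losses, 10 concern *Gsta4* in KI against WT. The others are *Gstt3* in KO against WT with library totals and *Gsta2* in KO against KI when its near copies were summed, and that sum gave a call for *Gsta2* in KI against WT. *Gsta1* gained a call in KO against KI without KO 7. In KO against WT, 7 of 7 were called when any single library was left out, and 6 or 7 under the other alternatives. In KI against WT it was 5 or 6, and in KO against KI 6 or 7. Calls over the whole table were also many. In KO against WT they numbered 7362 in the main fit, 6161 to 8449 with a library left out and 7343 to 8183 otherwise. In KI against WT they numbered 5722, 4276 to 6969 and 4891 to 6394. In KO against KI they numbered 7171, 6515 to 7230 and 6383 to 7420.

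Scaling by library totals moved the all-gene median log2 fold change from -0.03 to 0.38 in KO against WT and from -0.02 to 0.31 in KI against WT, and the portion of calls that were higher from 48.4% to 72.8% and from 50.2% to 76.3%. With that scaling *Gsta4* gave -0.41 in KO and -0.10 in KI, and *Gstt1* -3.03 and -0.55. The replicate block, with the replicate number as a term, called 7 members in KO against WT, 5 in KI against WT and 6 in KO against KI. Over the whole table it called 8183 genes in KO against WT, beside 7362 in the main fit. In KI against WT it called 4891, beside 5722. It lost *Gsta4* in KI against WT (adjusted p = 0.0604). Whether equal numbers pair the libraries was not settled. The 8 pairs of equal number had correlations of their deviations across genes between -0.19 and 0.21, the highest being KO 8 with WT 8. They leave out WT 5-6, which gave 0.16 with KO 5, -0.02 with KO 6, -0.03 with KI 5 and 0.06 with KI 6. At the depth of these libraries *Gsta2* and *Gm10639* rest on few reads.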
